A study of Mus musculus with 3 samples.

Results

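Matricellular and niche matrix proteins are secreted molecules that sit in the matrix around cells, and the genes of 10 of them (Sparc, Postn, Ccn1, Ccn2, Thbs1, Tnc, Aspn, Npnt, Egfl6 and Igfbp7) were followed through 3 cell populations of mouse back-skin epidermis. They were taken by name, with their levels in these libraries already known, and all 10 were found among the 49120 gene symbols of the deposited files. The cells came from wild type C57BL/6 mice, 7 weeks old, with the hair follicles in the second resting phase (telogen). Cells were sorted by surface CD34 and by integrin alpha 6 (Itga6): B were CD34-positive cells with high Itga6, which the labels call basal bulge stem cells, S were CD34-positive cells with low Itga6, called suprabasal bulge stem cells, and N were CD34-negative cells, called non-stem cells. Each population was a pool of RNA from 4 mice, so each group was 1 library, and none of the differences could be set against replicates or tested. In such bulk libraries fewer cells of a type and less RNA per cell cannot be told apart.

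Resting stem cells of the hair follicle live in its bulge, whose basal layer lies on a basement membrane. Matricellular proteins such as SPARC, periostin, thrombospondin 1 and tenascin-C are not structural fibres. They bind collagens, integrins and growth factors, and change how cells attach and how those factors reach them. In the mouse bulge, nephronectin (Npnt) is known as the stem cell product in the basement membrane that anchors the arrector pili muscle, which raises the hair. EGFL6, a close relative of nephronectin, is laid down in the basement membrane of the mouse follicle where touch-sensing nerve endings contact it. CCN1 and CCN2 are known target genes of the mechanically regulated YAP and TEAD factors.

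Levels are given as scaled FPKM, that is, as fragments per kilobase and per M mapped fragments (M stands for mega), divided by 1 factor per library, so that they can be compared between genes and between libraries. The libraries held 32.6 M fragments in B, 31.2 M in S and 35.3 M in N, as read from the steps between low values. Intervals in brackets are 95% intervals of the counting error only, computed from approximate fragment numbers, and cover neither the amplification nor variation from mouse to mouse. A gene is counted as higher or lower in a comparison where the log2 ratio of scaled FPKM plus 1 was at least 1 in size, which is 2-fold on that scale. The S library stood apart, since mitochondrial tRNA held 71.0% of its summed deposited FPKM, against 0% in B and in N. Nearly all of this was 1 gene, mt-Tl1, at 1.69e+06 of a summed 2.38e+06. Values per kilobase give short genes more weight, so this is not a share of fragments. The scaling factors did not rest on totals. The labels were checked on marker genes. Itga6, whose protein set B apart from S in the sort, was at 49.3 in B, 33.1 in S and 115 in N, so its RNA had the order of the gates but missed the 2-fold rule between B and S. The growth factor gene Fgf18, which marks inner bulge cells, had a value of 12.2 in B, 282 in S and 0.148 in N. The inner bulge keratin Krt6a was at 72.3 in B, 115 in S and 0.549 in N, and missed the 2-fold rule between B and S. Krt75, of the same list, was at 1.49 in B, 5.25 in S and 0.0867 in N. Cd34 was at 144 in B, 215 in S and 0.201 in N, and Lhx2, a transcription factor gene of the bulge, at 35.0, 56.1 and 0.911 in the same order.

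The promoters of 3 members are shown because these genes stand for 3 patterns over the libraries: Postn was high in both B and S, Ccn1 was low in S, and Aspn stood above 2 scaled FPKM in B but not in S or N. Each line gives the 250 bases before a RefSeq start (GRCm38.p6, the same assembly as the mm10 of the submitters' processing notes), 5′ to 3′ on the strand of the gene. Capitals mark matches to the TATA box letters TATAAA and to the TEAD core letters GGAATG, each searched on both strands.
Postn, chr3:54360857-54361106, plus strand: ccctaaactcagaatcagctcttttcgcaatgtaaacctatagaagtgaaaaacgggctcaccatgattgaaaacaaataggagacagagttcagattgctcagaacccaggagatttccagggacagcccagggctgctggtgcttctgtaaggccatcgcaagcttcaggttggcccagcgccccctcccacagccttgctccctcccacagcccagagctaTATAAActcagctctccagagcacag
Ccn1, chr3:145649986-145650235, minus strand: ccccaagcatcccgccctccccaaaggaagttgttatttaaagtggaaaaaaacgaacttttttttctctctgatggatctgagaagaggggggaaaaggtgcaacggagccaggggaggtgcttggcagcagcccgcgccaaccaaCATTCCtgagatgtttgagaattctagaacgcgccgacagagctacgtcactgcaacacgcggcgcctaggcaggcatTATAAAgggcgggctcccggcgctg
Aspn, chr13:49544193-49544442, plus strand: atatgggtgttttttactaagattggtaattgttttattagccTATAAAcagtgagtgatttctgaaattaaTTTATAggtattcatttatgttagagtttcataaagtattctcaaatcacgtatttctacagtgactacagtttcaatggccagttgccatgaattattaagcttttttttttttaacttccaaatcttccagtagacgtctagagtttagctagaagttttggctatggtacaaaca
In Postn and in Ccn1 a TATA box match began 26 and 25 bases before the start shown, while the matches in Aspn began 207 and 178 bases before it. Another RefSeq start of Postn, at 54359267, had 0 such matches in its window. Both windows of Tnc held a match, which began 126 and 205 bases before the start. Ccn1 also held the only TEAD core match in the windows of members, read as CATTCC on its own strand, 103 to 98 bases before the start. TATAAA was present in 12.4% and GGAATG in 12.6% of the 32851 promoter windows of this length in the table. AP-1 sites (TGANTCA, in 6.75% of windows) and the CArG box (1.47%) were searched too and had 0 matches in the 11 windows of members. A promoter was found for 8 of the 10 members, not for Ccn2 and Thbs1. The windows also differed in base composition, with 30.0% G and C for Aspn, 54.8% for Ccn1, and 74.0% for Igfbp7 and for Npnt at its first start. For Postn it was 52.0% at the start shown and 40.4% at the other. A match describes letters and is not a bound site.

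Most of the 10 genes were highest in the basal bulge library. B held the highest level of 9 members, as it did for 20.5% of all genes measured, while Postn was level between B and S. In B against N, 8 of 10 members were at least 2-fold higher and 0 were lower, with a median log2 ratio of 2.24; of all 11575 genes with a mean of at least 1 scaled FPKM, 7.27% were higher and 7.1% lower, with a median of -0.04. In B against S, 8 members were higher and 0 lower (median 2.88), where 5.93% of all genes were higher and 3.89% lower (median -0.06). In S against N the members were split, with 3 higher, 2 lower and 5 in neither class (median -0.07), where 9.56% of all genes were higher and 10.9% lower (median 0.02). All 10 members passed the filter on the mean. The genes were chosen with such differences in view, so these counts describe them and support nothing further, and the comparisons share libraries.

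**Figure D1:**
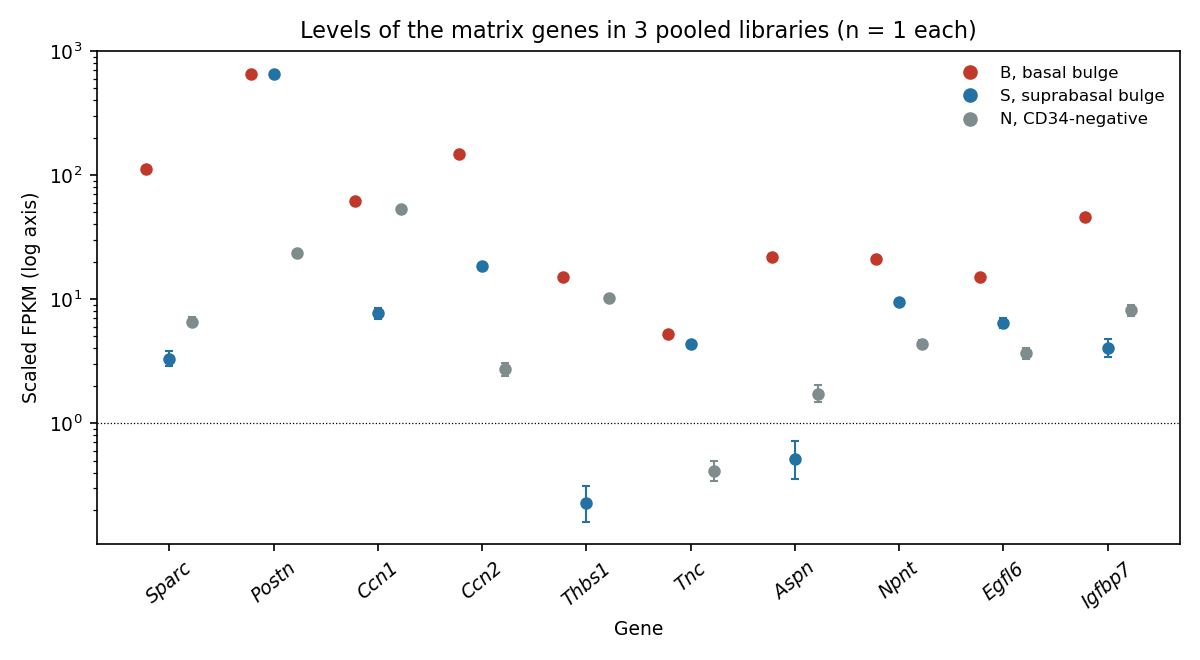
Scaled FPKM (log axis) of the 10 genes in B, S and N, 1 library each; bars are 95% counting intervals and the dotted line marks 1 scaled FPKM. Postn is near 655 in both bulge libraries, B is the highest point for the other 9 genes, and Thbs1 and Aspn fall below 1 in S.

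The bulge libraries differed from N in 3 ways. Postn, Ccn2 and Tnc were higher than in N by at least 2-fold in each bulge library, as were 4.6% of all genes. Sparc, Aspn, Igfbp7, Npnt and Egfl6, and again Ccn2, were at least 2-fold higher in B than in both other libraries, which held for 1.95% of all genes. Ccn1 and Thbs1 were at least 2-fold lower in S than in both other libraries, which held for 3.46% of all genes. With no size rule, 5 members (Sparc, Aspn, Igfbp7, Ccn1 and Thbs1) were above N in B and below N in S, as were 7.72% of all genes.

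Postn, which encodes periostin, a matrix protein that binds integrins, collagen and tenascin-C, was the most abundant member in B and S. Postn (chromosome 3, 54361109 to 54391037, plus strand, mm10, ENSMUSG00000027750) was at 654 in B, 657 in S and 23.6 in N. B and S were level and both stood far above N. The fold over N was 27.7 in B (26.7 to 28.8) and 27.9 in S (26.8 to 28.9), and the ratio of B to S was 0.995, with a counting interval (0.984 to 1.01) that holds 1. That the interval holds 1 depends on the scaling. The log2 ratio of B over S was -0.007 with the scaling used and 0.08 with the values as deposited. With scaling by the total without mitochondrial, ribosomal and small RNA it was 0.04. Among the 9916 protein coding genes measured, Postn ranked 44th in B, 43rd in S and 1275th in N. The gene with the most similar course over the 3 libraries was Plpp1, a lipid phosphate phosphatase gene, at 26.6 in B, 28.0 in S and 0.232 in N. The distance was 0.18 in centred log2 units of scaled FPKM plus 1, the scale of all such distances here. Adding 1 damps differences at values below 1, such as that of Plpp1 in N. Tgfbi, the closest relative of periostin, which shares its FAS1 domains, differed by less than 2-fold between any of the libraries, at 113 in B, 92.7 in S and 61.8 in N.

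Tnc, which encodes tenascin-C, a large multi-armed glycoprotein of embryonic and healing tissue, was also higher in both bulge libraries, at much lower levels. Tnc (chromosome 4, 63959785 to 64047015, minus strand, ENSMUSG00000028364) was at 5.19 in B, 4.32 in S and 0.414 in N. Both bulge libraries were above N, and N rested on about 115 fragments. The folds over N were 12.5 in B (10.3 to 15.3) and 10.4 in S (8.59 to 12.8). B was 1.20-fold above S (1.10 to 1.31), short of the 2-fold rule. With a pseudocount of 5 Tnc passed the rule against N in neither bulge library. Of the other tenascin genes, Tnxb alone was measured and ran the opposite way, at 0.532 in B, 0.0431 in S and 2.66 in N, and Tnn and Tnr stayed below 0.1 in each library.

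Ccn2 and Ccn1 are the closest relatives among the members, and their courses differed. Ccn2 (chromosome 10, 24595442 to 24598683, plus strand, ENSMUSG00000019997), also induced by TGF-beta, was at 147 in B, 18.6 in S and 2.73 in N. The 3 levels stepped down from B to S to N. B was 53.7-fold above N (47.6 to 60.9), the largest ratio of any member to N, and 7.86-fold above S (7.43 to 8.33). S was 6.83-fold above N (5.98 to 7.82). The gene nearest to it in course was Krt24, a keratin gene, at 46.4 in B, 4.88 in S and 0.262 in N. Ccn1 (chromosome 3, 145646976 to 145649981, minus strand, ENSMUSG00000028195) was at 61.3 in B, 7.67 in S and 53.1 in N. Here B and N lay close together and S alone was low. B was 8.0-fold above S (7.25 to 8.84), close to the same ratio for Ccn2, but only 1.15-fold above N (1.10 to 1.21). With the values as deposited, the log2 ratio of B over N was 0.04 in place of 0.20. S was 6.93-fold below N (6.28 to 7.66). The other CCN genes, Ccn3 to Ccn6, were at most 0.803 in any library, so that the family was represented by Ccn1 and Ccn2.

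Thbs1 shared the course of Ccn1 with a deeper drop in S. Thrombospondin 1 is a trimeric glycoprotein that binds CD36 and CD47 and can activate latent TGF-beta. Thbs1 (chromosome 2, 118111876 to 118127133, plus strand, ENSMUSG00000040152) was at 15.0 in B, 0.227 in S and 10.2 in N. S rested on about 38 fragments, against about 2800 in B and 2327 in N. B was 65.9-fold above S (47.9 to 93.3), the largest plain ratio of any member between the bulge libraries. Its counting interval overlapped that of Aspn (30.8 to 62.5). With the pseudocount of 1 the log2 ratio of B over S was 3.70 for Thbs1, below Sparc (4.72) and Aspn (3.93). For Thbs1, B was 1.47-fold above N (1.39 to 1.55). S was 44.9-fold below N (32.6 to 63.6). Thbs2, its nearest relative, was also lowest in S, at 2.82 in B, 0.178 in S and 7.88 in N, while Thbs3 was even, at 3.16, 3.77 and 2.45. The genes with the courses closest to Thbs1 and Ccn1 were Lfng (15.6 in B, 0.465 in S and 10.4 in N), a modifier of Notch receptors, and Ackr4 (58.1, 6.22 and 54.5), a scavenging chemokine receptor gene.

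Of the 4 interfollicular and differentiation markers, 3 were also at least 2-fold lower in S than in both B and N, as were 3.46% of all genes. The list was chosen with earlier results of these data known. Ly6a, an antigen of interfollicular and upper follicle cells, was at 35.0 in B, 1.69 in S and 150.1 in N, and the differentiation keratin Krt1 at 140.2, 13.3 and 258. Krt10 was at 233 in B, 55.9 in S and 372 in N. The basal keratin Krt14 was at 277 in B, 12.7 in S and 588 in N, whereas its partner Krt5 was even, at 810.3, 959 and 818. The fourth marker, Ivl, was level between the bulge libraries, at 1.84 in B, 1.95 in S and 3.51 in N. The 4 markers summed to 409.9 in B, 72.9 in S and 783 in N. Their part in the values of Ccn1 and Thbs1 was not tested.

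**Figure D2:**
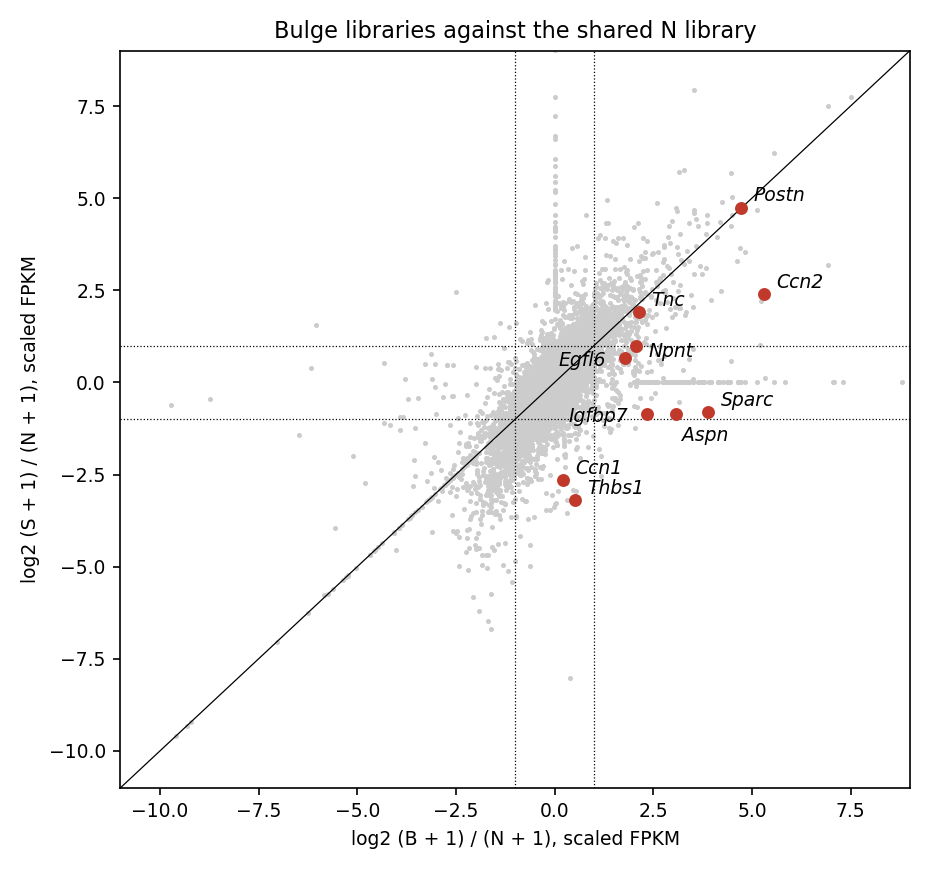
Log2 ratio of B over N (horizontal) and of S over N (vertical) for 11571 of 11575 genes in grey (4 small RNA genes lie outside the axes) and the 10 members in red, with dotted lines at the 2-fold rule and a solid line of equal ratios. Postn and Tnc lie near the line, the other 8 members lie below it, and Ccn1 and Thbs1 lie low on the S axis with little difference between B and N. Both axes use the same N library.

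Sparc, Aspn and Igfbp7 were high in B alone, and S was the lowest library for each. Sparc encodes a collagen-binding glycoprotein that loosens cell adhesion. Sparc (chromosome 11, 55394500 to 55423183, minus strand, ENSMUSG00000018593) was at 112 in B, 3.32 in S and 6.59 in N. B stood far above both other libraries, at rank 239 of the protein coding genes, against rank 6708 in S and 4308 in N. It was 33.9-fold above S (29.6 to 38.9) and 17.0-fold above N (15.7 to 18.6). S was 1.99-fold below N (1.70 to 2.33), short of the rule with the pseudocount of 1.

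Aspn encodes asporin, a small leucine-rich proteoglycan that binds collagen and TGF-beta. Aspn (chromosome 13, 49544443 to 49567565, plus strand, ENSMUSG00000021388) was at 22.0 in B, 0.510 in S and 1.73 in N. S rested on about 34 fragments and N on about 157. S was 3.40-fold below N (2.33 to 5.08), short of the rule with the pseudocount of 1. B was 43.1-fold above S (30.8 to 62.5) and 12.7-fold above N (10.8 to 15.1). Aspn lies within Cenpp, a centromere protein gene on the opposite strand, which was even at 2.18 in B, 1.85 in S and 1.98 in N. Among 10 other small leucine-rich proteoglycan genes, biglycan (Bgn) alone was measured, at 6.87 in B, 0.536 in S and 4.39 in N. The others stayed below 1 in each library, among them decorin (Dcn), at 0.123 in B, 0.386 in S and 0.440 in N. Ogn, a neighbour of Aspn in the genome, was at 0.402, 0.237 and 0.206.

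Igfbp7 belongs to the insulin-like growth factor binding protein superfamily, binds these factors weakly and is known from vessel basement membranes. Igfbp7 (chromosome 5, 77349240 to 77408041, minus strand, ENSMUSG00000036256) was at 45.6 in B, 4.07 in S and 8.14 in N. B was 11.2-fold above S (9.44 to 13.4) and 5.60-fold above N (5.01 to 6.27), and S was 2.00-fold below N (1.65 to 2.45). Of 6 measured relatives, 4 were also higher in B than in S and 0 were lower (median 1.37), against 5.93% and 3.89% of all genes. Among them were Igfbp4, a binding protein gene, at 10.1 in B, 1.58 in S and 2.98 in N, and Htra1, a secreted protease gene, at 9.64, 0.693 and 19.8. Igfbp5 (4.09 in B, 1.09 in S and 0.0179 in N) and Igfbp6 (4.43, 0.986 and 0), both picked after their values were seen, made up the rest. Igfbp3, the most abundant of the superfamily, was even, at 61.9 in B, 89.8 in S and 79.4 in N.

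The course of these 3 genes was most like that of Fam180a, which was the nearest gene for each of them. Fam180a was at 29.8 in B, 1.36 in S and 2.44 in N, and lay at a distance of 0.23 from Aspn, 0.58 from Igfbp7 and 0.74 from Sparc. Prss23, a secreted serine protease gene, was among the nearest 3 of both Aspn and Igfbp7, at 28.9 in B, 3.61 in S and 10.1 in N. For Sparc the next were Angptl7 (51.2, 0.433 and 0.307), a secreted angiopoietin-like protein gene, and Cck (63.9, 2.58 and 0.762), the gene of the peptide cholecystokinin. With 3 libraries such likeness rests on 3 values per gene.

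Within the SPARC family the layers held different members. Smoc1, a matrix protein gene of the family, was higher in S, at 1.47 in B, 18.9 in S and listed at 0 in N. Its sister Smoc2 was highest in N, at 5.96 in B, 0.336 in S and 27.3 in N. Sparc, Smoc1 and Smoc2 thus peaked in B, S and N. Fstl1 varied little, at 6.31 in B, 3.87 in S and 3.34 in N.

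**Figure D3:**
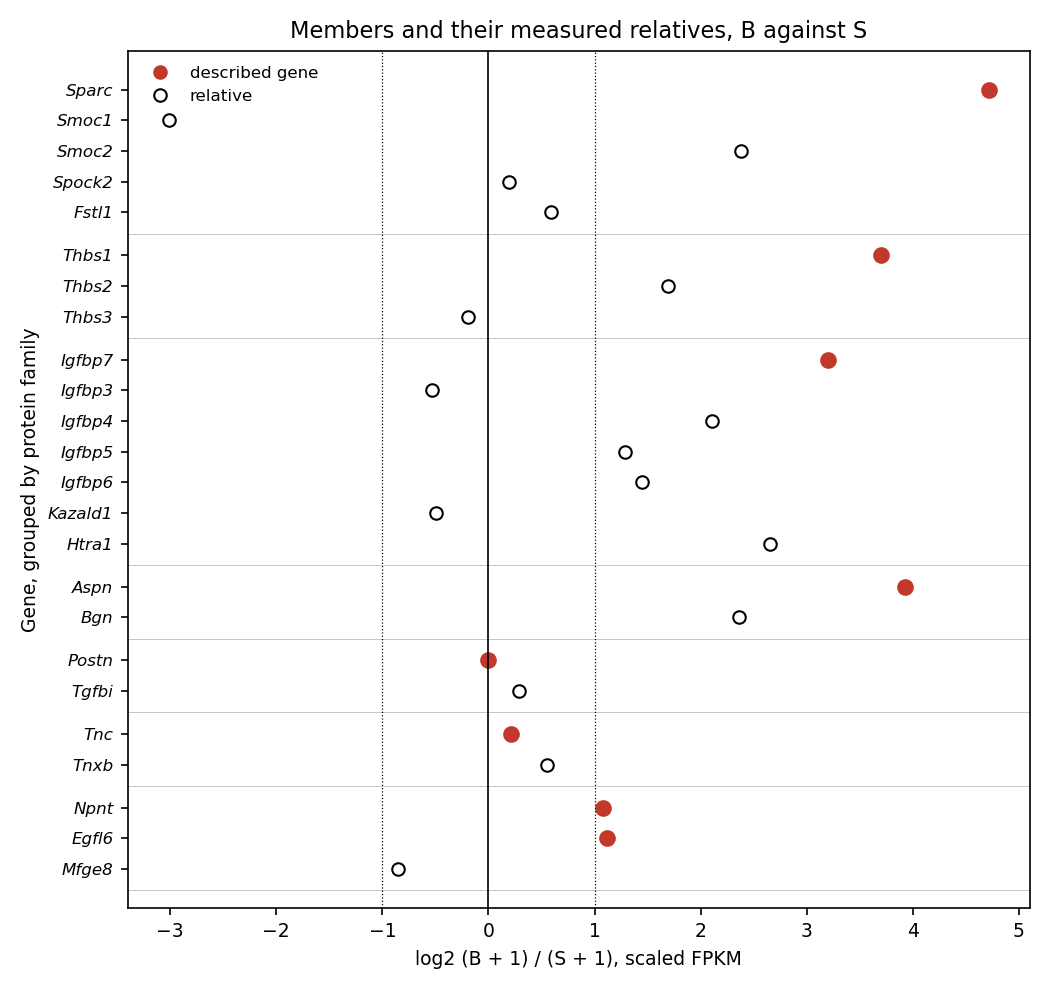
Log2 ratio of B over S for the described genes (red) and their measured relatives (open circles), grouped by protein family, with dotted lines at the 2-fold rule. Sparc and Smoc1 lie at opposite ends, Thbs1 and Thbs2 both lie to the right, and Postn, Tgfbi, Tnc and Tnxb lie between the dotted lines.

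Npnt and Egfl6, the related integrin ligands of the basement membrane, had the closest courses of any pair of members (a distance of 0.24). Npnt (chromosome 3, 132881745 to 132950291, minus strand, ENSMUSG00000040998) was at 21.2 in B, 9.51 in S and 4.33 in N. Egfl6 (chromosome X, 166523007 to 166585720, minus strand, ENSMUSG00000000402) was at 15.1 in B, 6.43 in S and 3.68 in N. Both stepped down from B to S to N. Npnt was 4.89-fold above N in B (4.52 to 5.29) and 2.23-fold above S (2.09 to 2.38). Egfl6 was 4.11-fold above N in B (3.67 to 4.62) and 2.35-fold above S (2.12 to 2.61). In S against N the folds were 2.19 for Npnt (2.01 to 2.40) and 1.75 for Egfl6 (1.53 to 2.00), and both missed the rule with the pseudocount of 1. With a pseudocount of 5 both also missed it in B against S. The nearest gene to Npnt was Cxcl14, a chemokine gene, at 80.7 in B, 34.3 in S and 17.3 in N, and Boc, a Hedgehog co-receptor gene, was among the nearest 3 of both. Mfge8, an integrin ligand with EGF repeats, was higher in both bulge libraries and highest in S, at 8.25 in B, 15.7 in S and 0.214 in N.

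Receptor genes for these ligands were read next. Of 14 measured, 2 were higher in B than in S and 0 were lower, with a median log2 ratio of -0.05, against 5.93% of all genes higher, 3.89% lower and a median of -0.06. The 2 higher ones were Itgb6 (8.38 in B, 0.245 in S and 3.32 in N) and Itgb8 (5.20, 2.06 and 1.85), integrin chains that activate latent TGF-beta, picked after their values were seen. Itga8, whose integrin binds nephronectin and which was also picked after its values were seen, was at 0.180 in B, 0 in S and 0.0833 in N. Sdc4, a heparan sulfate co-receptor gene, was at 130.1 in B, 218 in S and 129 in N, Cd47, a thrombospondin receptor gene, at 37.7, 38.2 and 30.5, and the collagen receptor gene Ddr1 at 12.7, 26.1 and 6.80.

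Of 8 measured YAP and TEAD target genes other than the members, 2 were higher in B than in S and 1 lower (median 0.49), against 5.93% and 3.89% of all genes. In S against N 0 were higher and 2 lower (median -0.38), against 9.56% and 10.9% of all genes. In B against N 0 were higher and 1 lower (median -0.17), against 7.27% and 7.1% of all genes. The phosphatase gene Ptpn14 was at 8.95 in B, 3.92 in S and 19.9 in N, the receptor kinase gene Axl at 10.6, 4.55 and 7.66, and Crim1 at 12.2, 12.8 and 12.3. Ankrd1, a classical target picked after its values were seen, was listed at 0 in each library. Of 12 measured genes of the TGF-beta axis, 2 were higher in B than in S and 0 lower (median 0.14), against the same shares of all genes for that comparison, 5.93% and 3.89%. These were Ltbp1 (7.62 in B, 0.983 in S and 1.72 in N) and Ltbp2 (7.84, 3.03 and 0.519), matrix proteins of the latent TGF-beta binding family, picked after their values were seen. In B against N, 4 genes of the axis were higher and 1 lower (median -0.07), against 7.27% and 7.1% of all genes. In S against N, 2 were higher and 2 lower (median 0.002), against 9.56% and 10.9% of all genes. The signal transducers Smad2 (16.2 in B, 17.8 in S and 20.7 in N) and Smad4 (11.8, 16.4 and 18.1) differed little.

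Of 9 measured collagen genes, 5 were higher in B than in N, 3 were higher in S than in N, and 3 were higher in B than in S, with 0 lower in each comparison. The shares of all genes on the higher side were 7.27%, 9.56% and 5.93% in the same order, and the medians of the collagen genes were 1.33, 0.47 and 0.52. Col17a1, the hemidesmosome collagen and the most abundant of the list, was at 177 in B, 161 in S and 109 in N, and Col7a1, which forms anchoring fibrils, at 11.9 in B, 5.09 in S and 9.36 in N. Col6a1, which encodes a chain of collagen VI, stood at 13.9 in B, 25.9 in S and 0.242 in N. Col12a1 and Col5a2, picked after their values were seen, followed the basal course, at 9.65 and 4.59 in B, 0.581 and 0.273 in S, and 1.51 and 0.0239 in N. Of 6 other measured matrix glycoprotein genes, Ecm1 stood above N in both bulge libraries, at 144 in B, 155 in S and 14.7 in N. Its folds over N, 9.82 in B and 10.6 in S, were smaller than those of Postn. Fibronectin (Fn1) was highest in S, at 1.90 in B, 20.7 in S and 2.31 in N. Efemp1, a fibulin gene, was highest in N, at 4.51 in B, 1.28 in S and 20.9 in N. The protease inhibitor gene Timp2 was at 36.7 in B, 20.8 in S and 1.82 in N, and the cathepsin gene Ctsl at 15.1, 3.84 and 10.2.

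Several members are also made by fibroblasts and vessel cells of the dermis, so markers of these cells were read in the same libraries. The 10 fibroblast markers summed to 7.89 in B, 5.84 in S and 1.09 in N. Most of that sum was Fbln1 (5.59 in B, 3.24 in S and 0.508 in N) and Col1a2 (1.77, 1.34 and 0.103), the only 2 of the 10 measured, both higher in B and S than in N. Of the other fibroblast markers, Col1a1, Col3a1, Pdgfra and Pdgfrb, picked after their values were seen, were at most 0.442 in any library. The 7 dermal papilla markers summed to 2.06 in B, 0.413 in S and 5.77 in N, most of it Rspo3 in N (5.52). The 6 smooth muscle, dermal sheath and pericyte markers summed to at most 0.785 in a library, the 6 endothelial markers to at most 0.492, the 5 melanocyte markers to at most 1.22, and the 4 Schwann cell markers to at most 1.05. Markers of Langerhans and myeloid cells summed to 8.27 in B, 10.1 in S and 20.6 in N, and those of T cells to at most 1.43. The part of these cells in the levels of the members was not tested.

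**Figure D4:**
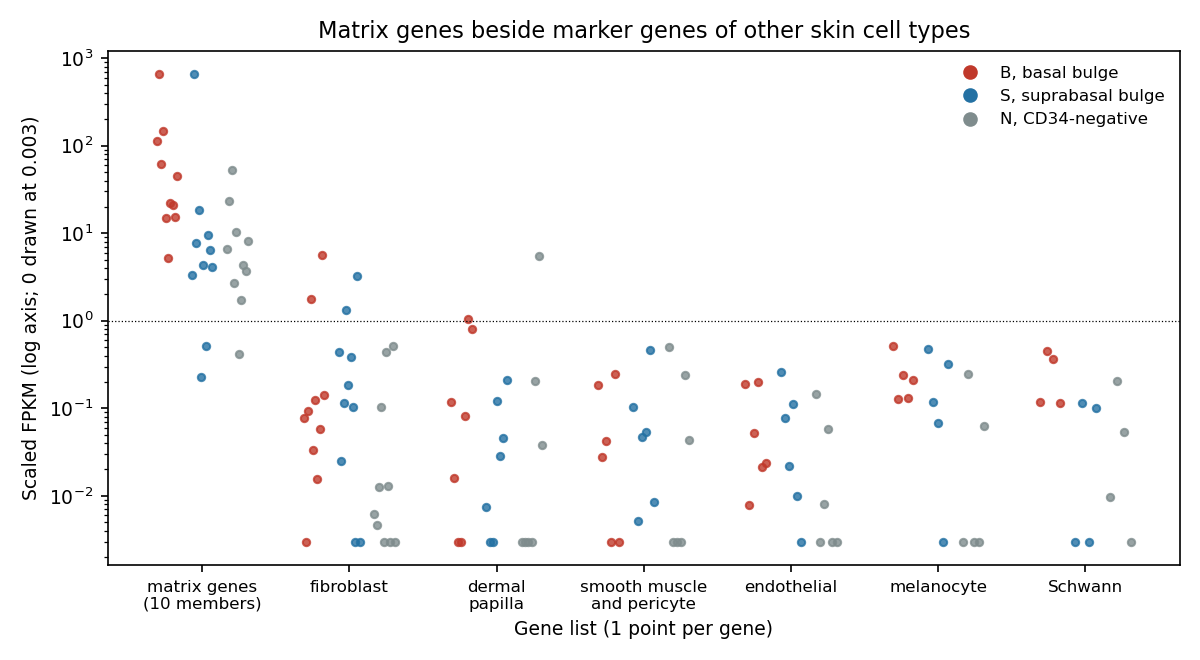
Scaled FPKM (log axis, 0 drawn at 0.003) of the 10 matrix genes and of marker genes of other skin cell types in B, S and N, 1 point per gene and library. Most markers drawn lie below the dotted line at 1. All 10 matrix genes, chosen with their levels known, lie above it in B. Markers of T cells and of Langerhans and myeloid cells are not drawn, and the latter summed to 8.27 in B, 10.1 in S and 20.6 in N.

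Some members overlap other genes, and without strand in the counting their reads cannot be told apart. Gm15270, a transcript on the opposite strand that overlaps Ccn2, was at 2.71 in B, 1.49 in S and 0 in N. Gm29233, on the opposite strand within Thbs1, was at 2.02 in B, 0 in S and 2.00 in N, the course of Thbs1 itself. The end of Igfbp7 overlaps that of Polr2b, a subunit gene of RNA polymerase II, which was even at 14.9 in B, 18.5 in S and 13.0 in N.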

How the data were processed

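Per the labels' protocols, epidermis was freed from dermis with thermolysin (0.25 mg/ml for 1 hour), sorted, and RNA of 4 mice pooled per population. It was amplified from poly(T) and random primers, and Nextera XT libraries were sequenced with paired-end reads of 75 bp. The deposited values are FPKM per Ensembl gene, per the file headers of N and S. The column of B is named for the population and was read as FPKM from its values. The submitters' processing notes name TopHat2 2.0.12, Cufflinks 2.1.1, DESeq2 and mm10 but give them no role, and the annotation is not given in the sources used here.

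Symbols were found for 49195 of 49452 rows, and rows of 1 symbol were summed. Scaling factors were medians of ratios taken on 18559 genes with values above 0 in each library (0.981 for B, 0.923 for S and 1.10 for N). A mean of at least 1 was required (11575 genes), and log2 ratios used a pseudocount of 1. Folds in the text are plain ratios of scaled FPKM, with exact 95% counting intervals from fragments approximated with the longest coding transcript in GENCODE M21. Depth came from genes with 1 exon and at least 3000 bp, where 95.8% to 97.1% of low values lay within 0.1 of a whole fragment. With 1 library per group no test was run. Python 3.11.15, pandas 2.3.3 and SciPy 1.17.1 were used. Alternatives were other scalings, pseudocounts, filters and row choices.

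The members and lists were chosen with earlier results of these data known. All members are named. Other names were drawn from, without exhausting, these sets: of each list the up to 3 most abundant genes and up to 3 more with a mean over the libraries of 5 or higher and the largest ratio of B to S, and the 3 protein coding genes nearest in course to each member of such a mean. Others are said to be picked after their values were seen, beside neighbours and overlapping genes.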

Additional observations from a re-analysis of the deposited data

Results flagged for a closer look

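In 5 genes the 2 bulge libraries lay on opposite sides of N, each beyond counting error with the scaling used. The difference was not tested, and both ratios use the same N library. The log2 ratios over N were 3.90 in B and -0.82 in S for Sparc, 3.07 and -0.86 for Aspn, and 2.35 and -0.85 for Igfbp7. They were 0.20 in B and -2.64 in S for Ccn1, and 0.51 and -3.19 for Thbs1. With the values as deposited the ratio of Ccn1 in B was 0.04, too small to place B above N. Of all genes measured, 7.72% were above N in B and below N in S, counted with no rule on size or counting error.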

How the results depend on the processing

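Of 267 log2 ratios of members recomputed under 9 alternatives, 0 turned their direction where they had passed the 2-fold rule. Of the 267, 208 moved by less than the longer side of their counting interval. A minimum mean of 5 or no filter leaves a ratio itself unchanged, so those values were among the 208 in advance. Taking the highest row per symbol hardly moved a ratio. Members higher in B than in N numbered 8 with every setting but a pseudocount of 5 and a minimum mean of 5, each of which took Tnc away. With the values as deposited, the ratio of B over N for Ccn1 was 0.04 in place of 0.20, and 4 members in place of 2 were lower in S than in N, as Sparc (-1.03) and Igfbp7 (-1.07) passed the rule. That setting moved the median of all genes by over 0.1, to -0.18 for both B and S over N. With a pseudocount of 0.1, Aspn (-1.59) was lower in S than in N and Npnt (1.12) higher, and with scaling by the total without mitochondrial, ribosomal and small RNA Npnt was at 1.02. With a pseudocount of 5, Npnt (0.85) and Egfl6 (0.82) were no longer past the rule in B against S. Scaling from the 2 libraries compared, chosen after seeing the data, changed no member's class. Over all genes, a pseudocount of 5 left 308 higher in B than in N, 447 higher in S than in N and 277 higher in B than in S, and a minimum mean of 5 left 373, 546 and 341. A pseudocount of 0.1 gave 1074 higher in B than in S. On the lower side a pseudocount of 5 left 349 in B against N, 556 in S against N and 190 in B against S, and a minimum mean of 5 left 419, 611 and 239. No paired analysis was possible because each group had 1 library. The lowest levels, of Aspn and Thbs1 in S, rested on about 34 and 38 fragments, and no setting replaces replicates.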
